A study of Mus musculus with 6 samples.

Results

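This account covers 41 mouse genes of glucose transport, glycolysis, lactate, the glycerol phosphate branch, the pentose phosphate pathway and glycogen, chosen by name for their place in these pathways. All 41 were found once each among the 34745 genes with a deposited count, and 40 passed the filter on low counts. The exception, Aldoc, had 0 to 8 counts per library. RNA was sequenced from left ventricle of mice with myocardial infarction (MI), in which heart muscle dies for lack of blood, a model of heart failure with reduced ejection fraction. The groups were MI-DAPA (3 libraries), mice with infarction given dapagliflozin, an inhibitor of the kidney sodium-glucose cotransporter SGLT2, and MI-NS (3 libraries), mice with infarction used as the control, whose abbreviation NS the labels leave unexplained and whose deposited files carry SA in its place. Infarction is shared by all 6 libraries, so no value here describes an uninjured heart. Dose, duration, strain, sex and age are not given in the labels.

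Glucose enters heart muscle cells through transporters of the SLC2A (GLUT) family, is trapped by hexokinase, and is then split by glycolysis, stored as glycogen or sent into the pentose phosphate pathway. The healthy adult heart draws most of its energy from fatty acids and also takes up and burns lactate. Many steps have one isoform prominent in striated muscle and another found more widely, including in fibroblasts and blood cells. Background of this kind is general knowledge and no result of these libraries.

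Library totals were 19086206 to 20563188 counts in MI-DAPA and 17207974 to 20540321 in MI-NS. Genes of the mitochondrial chromosome held 35.7%, 35.1% and 40.7% of counts in MI-DAPA replicates 1, 2 and 3. In MI-NS replicates 1, 2 and 3 they held 34.3%, 37.6% and 42.0%. Replicate 3 thus had the highest mitochondrial share in each group, and also the smallest total. Levels are CPM, the count of a gene relative to the total of its library, scaled by TMM factors. Each of the 40 genes was tested with the quasi-likelihood F test of edgeR, with p adjusted by Benjamini-Hochberg over 13940 genes and a threshold of 0.05. "Rose" and "fell" are used only for genes past that threshold. Markers of some cell types differed between groups, while 8.69% of all tested genes rose and 7.83% fell. Of 10 cardiomyocyte markers 5 rose and 0 fell (median log2 change 0.28), and their summed level was 53750 to 57291 CPM in MI-DAPA, against 44058 to 46841 CPM in MI-NS. Myh6 was the largest part of that sum, with a mean of 25828 CPM in MI-DAPA and 19211 CPM in MI-NS. Tnnt2, Tnnc1, Tnni3 and Myl2 did not pass and overlapped between groups (log2 -0.007, -0.04, 0.04 and 0.11). Myl3 did not pass either (log2 0.22). Of 8 fibroblast markers 5 fell and 0 rose (median -0.97; summed 1047 to 1271 CPM in MI-DAPA and 1974 to 2793 CPM in MI-NS). Of 8 macrophage markers 2 fell and 0 rose (174 to 195 CPM in MI-DAPA and 218 to 253 CPM in MI-NS), and of 7 endothelial markers 4 fell and 0 rose (1333 to 1364 CPM in MI-DAPA and 1604 to 1830 CPM in MI-NS). Of 9 skeletal muscle markers 6 were tested, 1 (Ckm, also a gene of heart muscle) rose and 0 fell, and their summed level, mostly Ckm and Acta1, was 2378 to 3018 CPM in MI-DAPA and 2449 to 2733 CPM in MI-NS. Of these, the fast myosin Myh4 was at 0 in all 6 libraries. Summed neutrophil markers were 3.53 to 5.71 CPM in MI-DAPA and 3.97 to 6.88 CPM in MI-NS, and summed adipocyte markers were 0.397 to 2.46 CPM in MI-DAPA and 0.540 to 3.77 CPM in MI-NS. Of 5 erythroid markers none passed (214 to 329.8 CPM in MI-DAPA and 197 to 260.3 CPM in MI-NS). In bulk tissue, a change in the number of cells of a type and a change of RNA per cell cannot be told apart. The part of these markers in the results that follow was not tested.

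Most genes of this set that passed were higher in MI-DAPA. Of 40 tested genes, 12 rose and 3 fell, while 8.69% of all tested genes rose and 7.83% fell. The median log2 change of the 40 was 0.19, against -0.02 for all tested genes, and 28 of the 40 were above 0, against 47.7% of all tested genes. The rises were moderate, from 1.23-fold for Gyg to 1.70-fold for Pygb, and Slc16a3 was the only one of the 40 that changed at least 2-fold. By step, 5 of 7 glycogen genes, 2 of 3 glycerol phosphate genes, 4 of 18 glycolysis genes and 1 of 5 transporters rose, while 1 gene each of glycolysis, lactate and the pentose phosphate pathway fell. The groups did not overlap in 26 of the 40 genes, nor in 37.0% of all tested genes. Scaled by library totals alone, 8 genes rose and 3 fell. Without replicate 3 of both groups, edgeR called 0 of the 40 higher and 0 lower, with 13 higher and 3 lower at an unadjusted p under 0.05, and the 15 called genes had the same direction there.

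**Figure D1:**
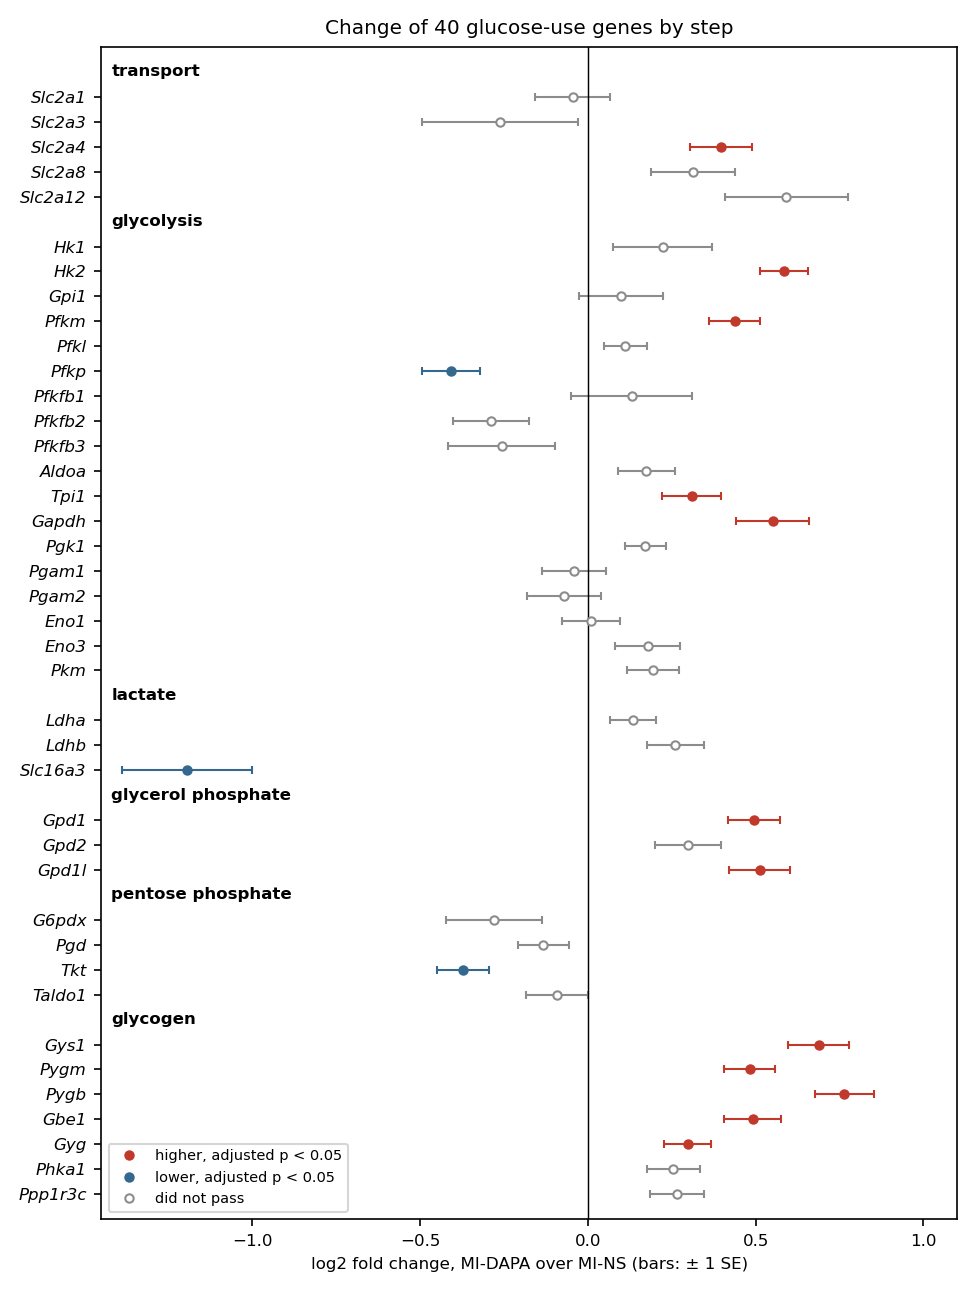
Log2 fold change of the 40 tested genes, MI-DAPA over MI-NS, ordered by step, with bars of 1 standard error and filled points for genes past the threshold. All 7 glycogen genes lie right of 0, all 4 pentose phosphate genes lie left of it, and Slc16a3 at -1.19 is the farthest from 0.

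Among glucose transporters, Slc2a4, which encodes the insulin-responsive GLUT4, rose. It had 311, 267 and 325 CPM in MI-DAPA, against 230, 213 and 243 CPM in MI-NS. Each MI-DAPA library was above each MI-NS library, and the change was 1.32-fold (log2 0.40 ± 0.09 SE, edgeR adjusted p = 0.0224). The adjusted p of Slc2a4 was 0.081 without MI-DAPA replicate 1, 0.0696 without replicate 3 of that group, 0.0522 without MI-NS replicate 2 and 0.0727 when scaled by library totals alone. The widely expressed GLUT1 gene, Slc2a1, had 14.8, 13.2 and 15.7 CPM in MI-DAPA and 16.6, 13.7 and 14.7 CPM in MI-NS. Its groups overlapped and it did not pass (log2 -0.04 ± 0.11, edgeR adjusted p = 0.819).

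The other transporters did not pass. Slc2a12, the gene of the transporter GLUT12, averaged 6.51 ± 0.832 CPM in MI-DAPA and 4.29 ± 0.804 CPM in MI-NS (SD, n = 3 each), without overlap (log2 0.59 ± 0.18, edgeR adjusted p = 0.0599). Its exons overlap those of Tbpl1 on the opposite strand, which had 1372 counts over the 6 libraries against 635 for Slc2a12, and the use of strand in counting is not given here. The intracellular transporter gene Slc2a8 averaged 13.6 ± 1.63 CPM in MI-DAPA and 10.95 ± 0.847 CPM in MI-NS (log2 0.31 ± 0.12, edgeR adjusted p = 0.12). The high-affinity transporter gene Slc2a3, known from neurons and blood cells, averaged 2.27 ± 0.0888 CPM in MI-DAPA and 2.70 ± 0.655 CPM in MI-NS (log2 -0.26 ± 0.23).

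The hexokinase and phosphofructokinase steps held rises of the muscle isoforms Hk2 and Pfkm and a fall of Pfkp. Hk2, the hexokinase that phosphorylates glucose in insulin-sensitive muscle, had 314, 303 and 304 CPM in MI-DAPA, against 219, 193 and 202 CPM in MI-NS. The lowest MI-DAPA library lay well above the highest MI-NS library, and Hk2 rose 1.5-fold (log2 0.58 ± 0.07, edgeR adjusted p = 0.00369). The broadly expressed hexokinase Hk1 had 172, 137 and 136 CPM in MI-DAPA and 118, 107 and 155 CPM in MI-NS. Its groups overlapped because of MI-NS replicate 3, and it did not pass (log2 0.22 ± 0.15, edgeR adjusted p = 0.34).

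Phosphofructokinase, which commits sugar phosphate to glycolysis, is made from muscle, liver and platelet subunits. The muscle subunit gene Pfkm had 973, 842 and 943 CPM in MI-DAPA, against 687, 672 and 678 CPM in MI-NS, and rose 1.35-fold without overlap (log2 0.44 ± 0.08, edgeR adjusted p = 0.0081). The platelet subunit gene Pfkp had 50.1, 54.5 and 55.6 CPM in MI-DAPA, against 68.3, 77.2 and 66.9 CPM in MI-NS, and fell (log2 -0.41 ± 0.09, edgeR adjusted p = 0.0156). All MI-DAPA libraries were below all MI-NS libraries. The adjusted p of Pfkp was 0.0672 without MI-DAPA replicate 1 and 0.0531 without replicate 3 of that group. Its exons overlap Pitrm1 on the opposite strand, which had 5289 counts in all against 7321 for Pfkp. The liver subunit gene Pfkl averaged 118 ± 1.46 CPM in MI-DAPA and 109 ± 3.42 CPM in MI-NS and did not pass (log2 0.11 ± 0.07).

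None of the 3 genes of the bifunctional enzymes that make and break down a sugar phosphate activator of phosphofructokinase passed. Pfkfb2, the isoform prominent in heart, averaged 49.4 ± 7.62 CPM in MI-DAPA and 60.3 ± 2.65 CPM in MI-NS, with no overlap between groups (log2 -0.29 ± 0.11, edgeR adjusted p = 0.118). Without MI-DAPA replicate 2, Pfkfb2 was at -0.39 with an edgeR adjusted p of 0.0498. Pfkfb3 was at -0.26 ± 0.16 and Pfkfb1 at 0.13 ± 0.18 on the log2 scale, both with overlapping groups.

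Of the later glycolytic enzymes, Gapdh and Tpi1 rose. Gapdh, glyceraldehyde-phosphate dehydrogenase, often used as a reference gene for PCR, had 262, 258 and 287 CPM in MI-DAPA and 159, 180 and 213 CPM in MI-NS. Its groups did not overlap, and it rose 1.46-fold (log2 0.55 ± 0.11, edgeR adjusted p = 0.0127). The annotation holds 78 other genes with a stretch of at least 200 bases at 95% identity or more to the Gapdh transcript, so its level is uncertain by the way shared reads were counted. Of these, 6 are in the count table, with 343 counts in all against 26349 for Gapdh. Tpi1, Pgk1, Ldha, Eno1, Gpi1, Pgam1, Pkm and Ldhb have 1 to 4 such similar genes each and are uncertain in the same way, with 3962 counts on the copy of Gpi1 against 46607, 1116 on that of Eno1 against 7923, and 795 on that of Pgam1 against 6386. Triosephosphate isomerase, Tpi1, had 444, 464 and 543 CPM in MI-DAPA and 393, 398 and 380 CPM in MI-NS (1.24-fold, log2 0.31 ± 0.09, edgeR adjusted p = 0.0436). Its spread in MI-DAPA came mostly from replicate 3. Tpi1 lost its call without each of the 6 libraries in turn, with an adjusted p of 0.0555, 0.0599 and 0.111 without MI-DAPA replicates 1, 2 and 3, and 0.0745, 0.0655 and 0.125 without MI-NS replicates 1, 2 and 3.

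Gpi1 and Aldoa, which act before Tpi1, and Pgk1 and Pkm, which act after Gapdh, did not pass. Aldolase A, Aldoa, which splits the phosphorylated sugar, had 1599, 1499 and 1658 CPM in MI-DAPA and 1298, 1532 and 1384 CPM in MI-NS (log2 0.17 ± 0.09, edgeR adjusted p = 0.2). Pyruvate kinase, Pkm, which makes pyruvate, had 1000, 899 and 976 CPM in MI-DAPA and 785, 876 and 853 CPM in MI-NS (log2 0.19 ± 0.08, edgeR adjusted p = 0.123). Pgk1, the first enzyme of the pathway that makes ATP, averaged 304 ± 2.79 CPM in MI-DAPA and 270 ± 3.07 CPM in MI-NS (log2 0.17 ± 0.06, edgeR adjusted p = 0.0918). Pkm and Pgk1 had no overlap between groups, while Aldoa did. The isomerase gene Gpi1 averaged 411 ± 54.4 CPM in MI-DAPA and 384 ± 55.5 CPM in MI-NS, with groups that overlapped (log2 0.10 ± 0.13).

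The phosphoglycerate mutase and enolase genes, with a muscle and a broad form each, also did not pass. The muscle mutase Pgam2 had 421, 397 and 489 CPM in MI-DAPA and 397, 481 and 496 CPM in MI-NS (log2 -0.07 ± 0.11). Its broad counterpart Pgam1 had 48.5, 59.3 and 53.0 CPM in MI-DAPA and 51.4, 57.1 and 57.0 CPM in MI-NS (log2 -0.04 ± 0.09). Both mutases overlapped between groups, and neither log2 value exceeded its standard error. The muscle enolase Eno3 had 848, 797 and 799 CPM in MI-DAPA and 663, 824 and 674 CPM in MI-NS (log2 0.18 ± 0.10, edgeR adjusted p = 0.24), with MI-NS replicate 2 inside the MI-DAPA range. Without that library Eno3 was at 0.30 with an adjusted p of 0.0379. The broad enolase Eno1 had 64.9, 66.3 and 72.4 CPM in MI-DAPA and 61.4, 71.5 and 69.4 CPM in MI-NS (log2 0.01 ± 0.09), and its sign turned when scaled by library totals alone. Aldoc, the brain form of aldolase, had 8, 5 and 0 counts in MI-DAPA and 8, 6 and 3 counts in MI-NS. In these libraries 3 counts, taken as the floor, equal 0.133 to 0.178 CPM (counting error alone), and a difference in Aldoc was not detectable at this depth.

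**Figure D2:**
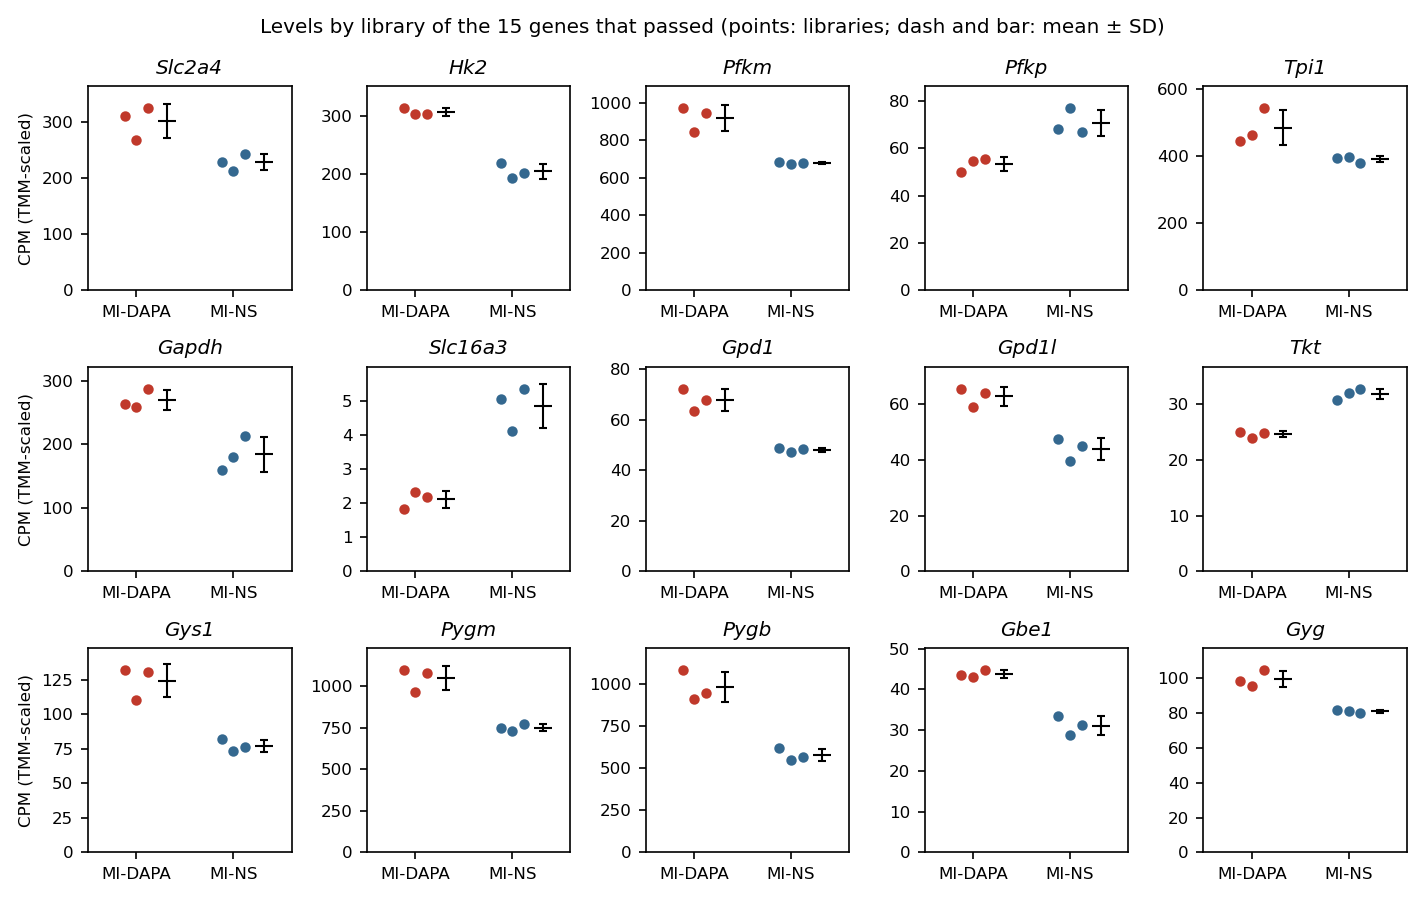
TMM-scaled CPM by library for the 15 genes that passed, MI-DAPA left and MI-NS right, each point 1 library, with the mean and SD beside them. Slc16a3, Pfkp and Tkt are lower in MI-DAPA and the other 12 are higher. In each panel the groups do not overlap, nor do they in 37.0% of all tested genes. The 15 genes had passed the threshold in the same libraries, so this adds no separate evidence.

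The lactate genes held the largest change of the set. Slc16a3, which encodes the lactate exporter MCT4 of strongly glycolytic cells, had 1.84, 2.31 and 2.18 CPM in MI-DAPA, against 5.06, 4.12 and 5.35 CPM in MI-NS. The raw counts behind these levels were 37, 47 and 38 in MI-DAPA and 114, 84 and 90 in MI-NS. The highest MI-DAPA library was below the lowest MI-NS library, and Slc16a3 fell to a level 2.29-fold lower in MI-DAPA (log2 -1.19 ± 0.19, edgeR adjusted p = 0.00642). It was a rare transcript in both groups, at 0.487 CPM per kilobase of transcript in MI-DAPA and 1.117 in MI-NS, where Aldoa had 1049 and 930. The summed levels of fibroblast, macrophage and endothelial markers were lower in MI-DAPA beside it. Of the 8 macrophage markers only 2 fell, and Cd163 had a log2 change of 0.15. The part of these markers in the fall of Slc16a3 was not tested.

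The lactate dehydrogenase genes were far more abundant and did not pass. Ldhb, the heart form that favours use of lactate, had 963, 961 and 1081 CPM in MI-DAPA and 773, 896 and 839 CPM in MI-NS (log2 0.26 ± 0.08, edgeR adjusted p = 0.0691). Ldha, the form that favours making lactate, had 487, 484 and 479 CPM in MI-DAPA and 414, 459 and 446 CPM in MI-NS (log2 0.14 ± 0.07, edgeR adjusted p = 0.212). Neither gene overlapped between groups. DESeq2 gave Ldhb an adjusted p of 0.0289.

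The glycerol phosphate branch, which links glycolysis to lipid synthesis and carries electrons into mitochondria, had 2 rises among 3 genes. The cytosolic dehydrogenase Gpd1 had 72.1, 63.3 and 67.7 CPM in MI-DAPA and 48.8, 47.1 and 48.2 CPM in MI-NS, and rose 1.41-fold (log2 0.50 ± 0.08, edgeR adjusted p = 0.00602). Its relative Gpd1l, known in humans also as a modifier of the cardiac sodium channel, had 65.4, 58.8 and 63.9 CPM in MI-DAPA and 47.4, 39.6 and 45.0 CPM in MI-NS, and rose 1.43-fold (log2 0.51 ± 0.09, edgeR adjusted p = 0.00871). These genes showed gaps between groups that were wider than the range within either group. The mitochondrial partner of the shuttle, Gpd2, averaged 13.9 ± 0.673 CPM in MI-DAPA and 11.3 ± 0.486 CPM in MI-NS and did not pass (log2 0.30 ± 0.10, edgeR adjusted p = 0.0729).

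All 4 pentose phosphate genes had log2 changes below 0, and 1 passed. This pathway makes NADPH, used in defence against oxidants and in lipid synthesis, and ribose for nucleotides. Transketolase, Tkt, of its reversible arm, had 25.0, 24.0 and 24.8 CPM in MI-DAPA, against 30.9, 31.98 and 32.8 CPM in MI-NS. The groups lay apart with little spread in either, and Tkt fell (log2 -0.37 ± 0.08, edgeR adjusted p = 0.016). Its adjusted p was 0.0516, 0.052 and 0.0643 without MI-DAPA replicates 1, 2 and 3 and 0.0595 without MI-NS replicate 3. The entry enzyme G6pdx had 6.86, 8.62 and 8.10 CPM in MI-DAPA and 8.43, 10.6 and 9.62 CPM in MI-NS, with overlap (log2 -0.28 ± 0.14, edgeR adjusted p = 0.217). The exons of G6pdx overlap Ikbkg on the opposite strand, which had 2202 counts against 1022 for G6pdx. Pgd was at -0.13 ± 0.08 and Taldo1 at -0.09 ± 0.09 on the log2 scale.

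Of the 7 glycogen genes 5 rose and 0 fell, with a median log2 change of 0.48, while 8.69% of all tested genes rose. The groups did not overlap in any of the 7, nor in 37.0% of all tested genes. The summed level of the 7 was 2280 to 2590 CPM in MI-DAPA, against 1589 to 1681 CPM in MI-NS. Genes of synthesis and of breakdown were both among the rises, and with 1 library left out at least 4 of the 7 rose, while 3 rose when scaled by library totals alone. Without replicate 3 of both groups edgeR called 0 of the 7, and 5 were higher at an unadjusted p under 0.05.

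On the synthesis side, muscle glycogen synthase Gys1, which extends the chains, had 132, 110 and 130 CPM in MI-DAPA, against 82.1, 73.1 and 75.9 CPM in MI-NS. It rose 1.61-fold without overlap (log2 0.69 ± 0.09, edgeR adjusted p = 0.00451). Its exons overlap Ruvbl2 on the opposite strand, which had 2357 counts against 11781 for Gys1. The branching enzyme Gbe1 had 43.5, 43.0 and 44.8 CPM in MI-DAPA and 33.4, 28.7 and 31.2 CPM in MI-NS, and rose 1.41-fold (log2 0.49 ± 0.08, edgeR adjusted p = 0.0078; 0.0537 when scaled by library totals alone). Glycogenin, Gyg, the primer on which a glycogen particle is built, had 98.5, 95.8 and 105 CPM in MI-DAPA and 82.0, 81.2 and 80.3 CPM in MI-NS. This rise was the smallest of the 12, at 1.23-fold (log2 0.30 ± 0.07, edgeR adjusted p = 0.0224). The adjusted p of Gyg was 0.0657 and 0.0732 without MI-DAPA replicates 1 and 3, 0.0733 without MI-NS replicate 3, and 0.201 when scaled by library totals alone. Ppp1r3c, a subunit that brings protein phosphatase to glycogen and so activates the synthase, averaged 94.2 ± 7.66 CPM in MI-DAPA and 78.4 ± 1.76 CPM in MI-NS. It lay just outside the threshold (log2 0.27 ± 0.08, edgeR adjusted p = 0.0536) and passed with DESeq2 (adjusted p = 0.034).

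On the breakdown side, both phosphorylase genes rose. Pygb, the form named for brain and also present in heart, had 1084, 913 and 950 CPM in MI-DAPA, against 617, 551 and 566 CPM in MI-NS. This was the largest rise and the smallest p of the set, at 1.70-fold (log2 0.76 ± 0.09, edgeR adjusted p = 0.00343). Pygm, the muscle form, had 1097, 964 and 1081 CPM in MI-DAPA, against 750, 730 and 769 CPM in MI-NS (1.40-fold, log2 0.48 ± 0.08, edgeR adjusted p = 0.00625). Phka1, the regulatory subunit of muscle phosphorylase kinase, which switches phosphorylase on, averaged 49.9 ± 1.94 CPM in MI-DAPA and 41.8 ± 2.22 CPM in MI-NS and did not pass (log2 0.25 ± 0.08, edgeR adjusted p = 0.0587).

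Of 17 further glycogen genes that were tested, listed by function, 7 rose and 0 fell, with a median log2 change of 0.29. Of all tested genes 8.69% rose and 7.83% fell. Ppp1r3a, the striated muscle subunit that anchors protein phosphatase to glycogen, had 161, 146 and 153 CPM in MI-DAPA and 105, 65.5 and 92.1 CPM in MI-NS (log2 0.81 ± 0.15, edgeR adjusted p = 0.0102). Its relatives Ppp1r3b (0.51 ± 0.09) and Ppp1r3d (0.73 ± 0.17), the laforin gene Epm2a (0.49 ± 0.10), the phosphorylase kinase subunit Phkb (0.43 ± 0.10), the lysosomal glucosidase Gaa (0.30 ± 0.07) and the phosphoglucomutase Pgm2 (0.41 ± 0.07) also rose on the log2 scale. Genes with a log2 change below 0 were Pgm1 (-0.46 ± 0.14), Stbd1 (-0.22 ± 0.13) and Phkg2 (-0.25 ± 0.12), and none of these 3 passed. Symbols are those of the mouse annotation used here. In it Pgm1 (chromosome 5) averaged 6.40 CPM in MI-DAPA and 8.79 CPM in MI-NS. The far more abundant Pgm2 (chromosome 4) averaged 222 CPM in MI-DAPA and 167 CPM in MI-NS. The count of these further genes that rose was 3 without MI-DAPA replicate 1, 4 without MI-NS replicate 3, and 3 when scaled by library totals alone. It was 0 in edgeR without replicate 3 of both groups, where 7 were higher and 2 lower at an unadjusted p under 0.05. Of the 10 cardiomyocyte markers 5 also rose, while Tnnt2, Tnnc1, Tnni3, Myl2 and Myl3 did not pass.

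**Figure D3:**
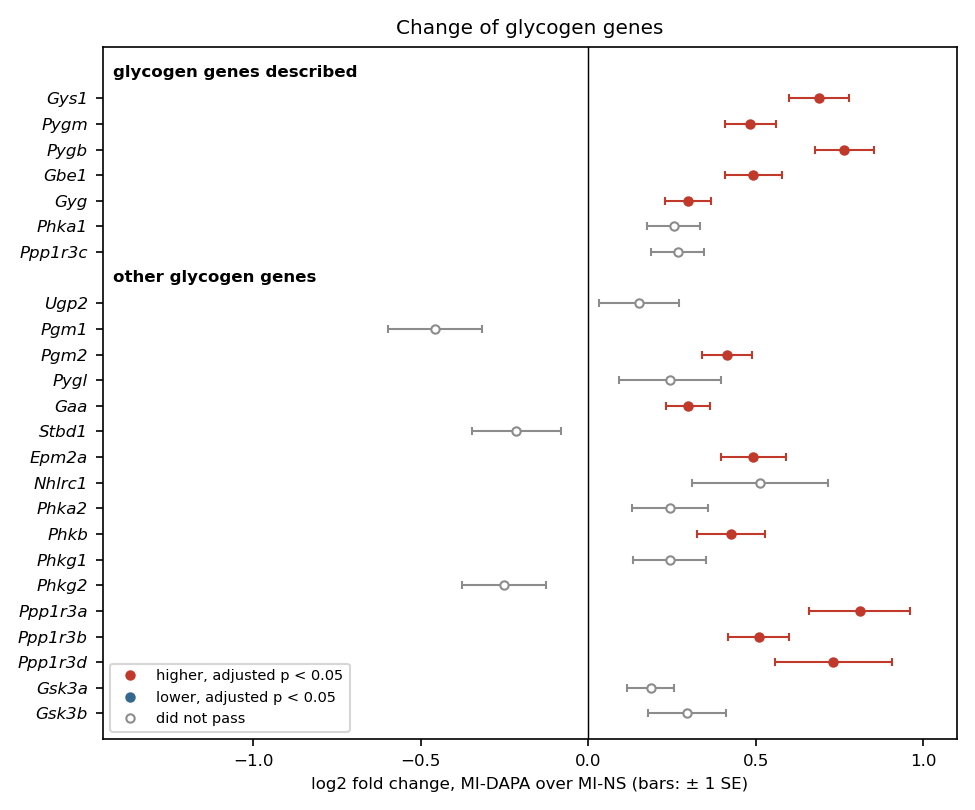
Log2 fold change with 1 standard error for the 7 glycogen genes of the set and 17 further glycogen genes, MI-DAPA over MI-NS, filled where the gene passed. Filled points run from 0.30 for Gyg to 0.81 for Ppp1r3a, and no gene passed on the left of 0.

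The sequences before the transcript starts of Pygb, Hk2, Gys1 and Pygm are shown because these 4 had the smallest p among genes with a single promoter window in RefSeq (build GRCm38.p6, the same assembly as mm10). Each window runs from 250 bases before the start to 50 bases after it, 5′ to 3′ on the strand of the gene. Both strands were searched for 4 motifs. They were the hypoxia response core ACGTG, the E-box CACGTG (which contains the first), the estrogen-related receptor core AAGGTCA and the TATA box TATAAA. Capitals mark the matches, all of them to the first motif on the opposite strand, so that it is printed as CACGT. The windows are Pygb at chr2:150786546-150786845 (plus strand), Hk2 at chr6:82774405-82774704 (minus strand), Gys1 at chr7:45434589-45434888 (plus strand) and Pygm at chr19:6384158-6384457 (plus strand).
Pygb: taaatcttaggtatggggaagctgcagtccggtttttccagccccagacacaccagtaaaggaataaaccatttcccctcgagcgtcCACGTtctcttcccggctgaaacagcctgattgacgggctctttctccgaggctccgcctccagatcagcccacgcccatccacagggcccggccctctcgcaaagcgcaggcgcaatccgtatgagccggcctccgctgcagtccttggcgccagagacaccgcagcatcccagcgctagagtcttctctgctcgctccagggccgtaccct
Hk2: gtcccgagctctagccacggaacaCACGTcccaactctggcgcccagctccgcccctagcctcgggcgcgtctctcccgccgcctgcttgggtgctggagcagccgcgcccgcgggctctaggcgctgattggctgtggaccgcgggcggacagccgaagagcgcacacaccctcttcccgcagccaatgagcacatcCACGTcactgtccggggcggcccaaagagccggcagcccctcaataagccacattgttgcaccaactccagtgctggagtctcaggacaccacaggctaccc
Gys1: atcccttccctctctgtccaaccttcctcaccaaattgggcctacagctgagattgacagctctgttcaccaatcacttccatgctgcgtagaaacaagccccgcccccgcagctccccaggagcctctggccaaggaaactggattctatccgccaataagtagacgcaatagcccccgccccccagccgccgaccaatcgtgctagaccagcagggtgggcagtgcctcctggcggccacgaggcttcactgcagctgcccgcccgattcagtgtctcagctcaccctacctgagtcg
Pygm: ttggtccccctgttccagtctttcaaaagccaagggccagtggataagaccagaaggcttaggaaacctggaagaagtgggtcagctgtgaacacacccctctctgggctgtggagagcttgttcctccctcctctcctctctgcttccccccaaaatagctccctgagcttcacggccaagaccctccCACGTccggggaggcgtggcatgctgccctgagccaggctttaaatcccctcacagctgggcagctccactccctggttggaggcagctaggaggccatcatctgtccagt

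The Pygb window had 1 match to ACGTG, beginning 163 bases before the start, the Hk2 window had 2, at 226 and 52 bases before the start, and the Pygm window had 1, at 61 bases before it. The Gys1 window held none of the 4 motifs. Over all 38 genes of the set with a window, 21 had ACGTG in at least 1 of their windows (25 of 57 windows), while 19.6% of all 32851 promoter windows held it. CACGTG was in 7 of the 57 windows (7.15% of all windows), AAGGTCA in 3 (4.72%) and TATAAA in 2 (13.6%). A match to letters in a window is a description and shows no binding of a factor.

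Within each library, the ratio of 2 isoforms of the same step was compared for 8 pairs, since a ratio of counts in the same library needs no scaling. The coding sequences of the paired transcripts were 68.9% to 77.3% identical over aligned bases. The phosphofructokinase pair differed most between groups among pairs with more than a few counts in each gene. Pfkm/Pfkp was 19.4, 15.5 and 16.97 in MI-DAPA, against 10.05, 8.70 and 10.1 in MI-NS, a 1.79-fold higher ratio without overlap. Slc2a4/Slc2a1 was 21.04, 20.2 and 20.6 in MI-DAPA, against 13.8, 15.5 and 16.5 in MI-NS, a 1.35-fold higher ratio without overlap.

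The phosphorylase pair went the other way. Pygm/Pygb was 1.01, 1.06 and 1.14 in MI-DAPA, against 1.21, 1.32 and 1.36 in MI-NS, so the brain form made up more of the pair in each MI-DAPA library although both genes rose. Ldhb/Ldha was 1.98, 1.98 and 2.26 in MI-DAPA and 1.87, 1.95 and 1.88 in MI-NS, also without overlap, a 1.09-fold higher ratio. Each of these 4 pairs had an exact two-sided permutation p of 0.1, the smallest that 3 against 3 libraries allow, and 0.2 after Benjamini-Hochberg adjustment over the 8 pairs, so none could pass 0.05 in this design.

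The remaining pairs overlapped between groups. Hk2/Hk1 was 1.83, 2.22 and 2.24 in MI-DAPA and 1.86, 1.80 and 1.303 in MI-NS (exact permutation p = 0.2). Eno3/Eno1 was 13.1, 12.02 and 11.0 in MI-DAPA and 10.8, 11.5 and 9.71 in MI-NS (exact permutation p = 0.2). Pgam2/Pgam1 was 8.68, 6.70 and 9.22 in MI-DAPA and 7.72, 8.41 and 8.68 in MI-NS (exact permutation p = 0.9), with the muscle form in similar excess throughout. The Aldoa/Aldoc ratio rested on 0 to 8 Aldoc counts per library and gave an exact permutation p of 0.6.

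**Figure D4:**
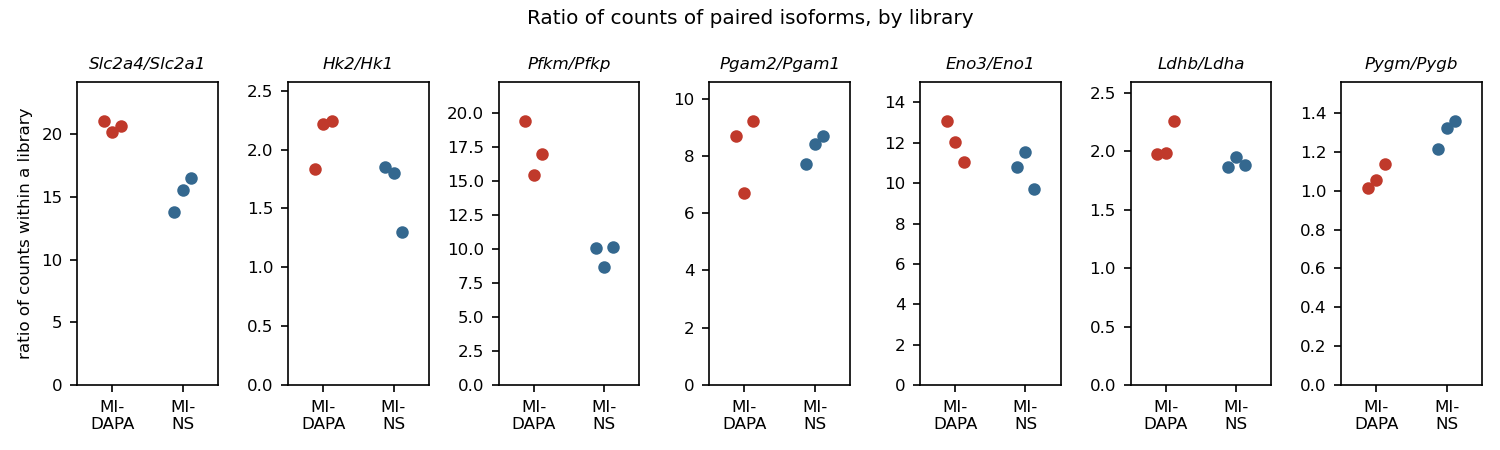
Ratio of counts of paired isoforms, as named above each panel, within each library for 7 pairs (the aldolase pair is left out for its low counts), MI-DAPA left and MI-NS right, each point 1 library, axes from 0. The groups are apart for Slc2a4/Slc2a1, Pfkm/Pfkp, Ldhb/Ldha and Pygm/Pygb, with the last of these lower in MI-DAPA.

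Per kilobase of the principal transcript, the levels of the set covered a wide range, and their order was similar in the groups. The highest were Aldoa at 1049 CPM per kilobase in MI-DAPA and 930 in MI-NS, and Ldhb at 768 in MI-DAPA and 641 in MI-NS. Eno3 (521 in MI-DAPA and 461 in MI-NS) and Pgam2 (519 in MI-DAPA and 545 in MI-NS) came next and traded places between groups. Slc2a4 stood at 119 CPM per kilobase in MI-DAPA and 90.7 in MI-NS, far above Slc2a1 at 4.47 in MI-DAPA and 4.61 in MI-NS. Gys1 stood at 33.8 CPM per kilobase in MI-DAPA and 20.9 in MI-NS, while Pygm stood at 364 in MI-DAPA and 261 in MI-NS. Aldoc, Slc16a3 and Slc2a3 were the lowest in MI-DAPA, and Aldoc, Slc2a3 and Slc2a12 the lowest in MI-NS.

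**Figure D5:**
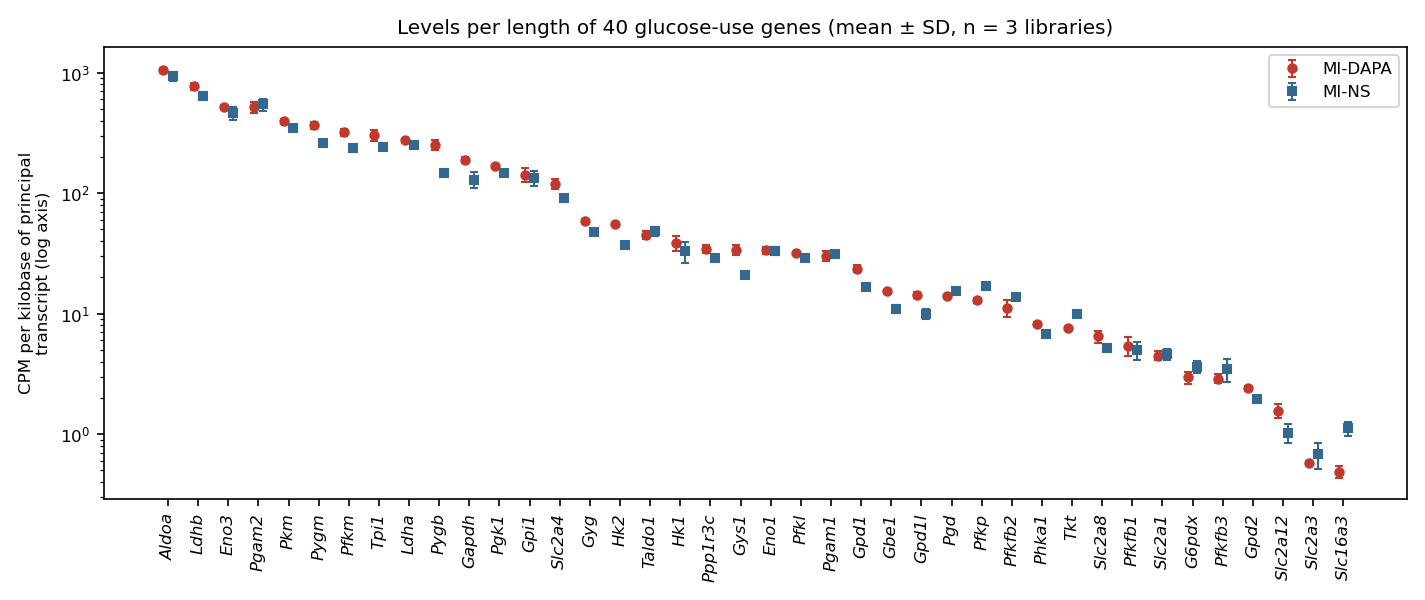
Mean CPM per kilobase of the principal transcript (log axis) with SD over 3 libraries for the 40 tested genes, MI-DAPA in red circles and MI-NS in blue squares, ordered by the MI-DAPA level. Aldoa is highest, at 1049 in MI-DAPA and 930 in MI-NS, and Slc16a3 is lowest in MI-DAPA, at 0.487 against 1.117 in MI-NS.

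Other genes of these pathways, 70 listed by function and 59 of them tested, gave 16 rises and 3 falls, while 8.69% of all tested genes rose and 7.83% fell. The median log2 change of the 59 was 0.19. Without MI-DAPA replicate 1 there were 8 rises and 1 fall, without MI-NS replicate 3 there were 9 rises, and scaled by library totals alone there were 8. Without replicate 3 of both groups edgeR called 0 higher and 0 lower, with 15 higher and 7 lower at an unadjusted p under 0.05. Beyond glycogen, the rises with the smallest p were the polyol enzyme Sord, at 1.44-fold (139.9 ± 4.38 CPM in MI-DAPA and 97.4 ± 4.68 CPM in MI-NS), Txnip at 1.55-fold (447 ± 53.5 CPM in MI-DAPA and 289 ± 24.0 CPM in MI-NS), the muscle fructose bisphosphatase Fbp2 at 1.62-fold (29.9 ± 1.504 CPM in MI-DAPA and 18.4 ± 2.61 CPM in MI-NS) and the insulin signalling kinase Akt2 at 1.46-fold (64.7 ± 2.54 CPM in MI-DAPA and 44.3 ± 4.39 CPM in MI-NS; SD, n = 3 each). Their edgeR adjusted p ranged from 0.0049 for Sord to 0.00676 for Akt2. Txnip encodes a thioredoxin-binding protein that restrains glucose uptake, and its relative Arrdc4, which acts in the same way, fell, with 10.5, 10.9 and 10.4 CPM in MI-DAPA, against 16.6, 13.8 and 15.9 CPM in MI-NS (log2 -0.54 ± 0.11, edgeR adjusted p = 0.0127). The insulin receptor gene Insr rose 1.26-fold (edgeR adjusted p = 0.0325), and pyruvate carboxylase, Pcx, which feeds pyruvate into the TCA cycle, rose 1.53-fold (edgeR adjusted p = 0.00937).

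The other falls were of Gfpt2, an entry enzyme of the hexosamine pathway, and Eno2, the neuronal enolase. Gfpt2 had 12.6, 22.7 and 17.7 CPM in MI-DAPA and 32.3, 32.2 and 37.3 CPM in MI-NS (log2 -0.94 ± 0.19, edgeR adjusted p = 0.0131), while its relative Gfpt1 did not pass (0.27 ± 0.15). Eno2 had 1.24, 1.23 and 1.21 CPM in MI-DAPA and 3.19, 2.26 and 2.08 CPM in MI-NS (log2 -1.04 ± 0.25, edgeR adjusted p = 0.0274). Of 5 further pentose phosphate genes 0 rose and 0 fell in edgeR and in DESeq2, and 0 had an unadjusted p under 0.05 in either. The liver pyruvate kinase Pklr, the liver fructose bisphosphatase Fbp1 and the testis lactate dehydrogenase Ldhc were at 0 in all 6 libraries, and the liver glycogen synthase Gys2 had a single count. Insr, Txnip, Akt2, Fbp2, Sord, Pcx, Arrdc4, Gfpt2, Eno2 and the 7 further glycogen genes that rose showed no overlap between groups. These genes had passed the threshold in the same 6 libraries, so this adds no separate evidence. The groups did not overlap in 37.0% of all tested genes.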

How the data were processed

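Per the labels' protocols, mRNA separated from total RNA of left ventricle was sequenced on a NovaSeq instrument. The authors deposited raw read counts per gene, 1 table per library, with 34745 genes each; per the submitters' processing notes the build was mm10 and the tools were StringTie 1.3.0 and edgeR. For the aligner, the counting program and the use of strand: not given in the sources used here. Exons of 15 of the 41 genes overlap a listed gene on the opposite strand, and 9 have a similar gene elsewhere in the GENCODE M21 annotation (at least 200 bases at 95% identity, blastn). Groups and replicate numbers are those of the titles. The labels speak of biological replicates without naming animals, so a p-value here rests on 3 libraries a group, whose spread may be technical in part. For a single gene, the edgeR p-value also draws on the spread of the other tested genes. Counts were filtered by filterByExpr (minimum count 10, minimum total 15), scaled by TMM and tested with glmQLFit and glmQLFTest in edgeR 4.0.16 (R 4.3.3), and with DESeq2 1.42.0 as an alternative. A standard error is the absolute log2 change divided by the square root of F; the common biological coefficient of variation was 0.139. Floors and counts cover counting error only. Levels per kilobase use the principal transcript by its APPRIS tag in GENCODE M21, and isoform ratios used counts plus 0.5. The genes, lists and tests were chosen with earlier results of these data known. Within the set of 41, values in every library are given for genes past the threshold, for both genes of each isoform pair and for Slc2a1, Slc2a4, Gapdh, Pkm, G6pdx and Gys1. Of the other pathway genes the 10 with the smallest p are named; further names among them were chosen after their values were seen. Apart from this rule, 1 glycogen gene is not reported here. Alternatives were RLE factors, library totals, no filter, DESeq2, a replicate block and left-out libraries. The step was also run on simulated counts for 13817 genes, with the same dispersion for every gene. It recovered 32.8% of 67 genes changed 1.5-fold, 88.1% of 67 at 2-fold and 98.5% of 66 at 4-fold, with 5 false among 151 calls. In the real libraries 2304 genes were called, so these rates need not hold there.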

Additional observations from a re-analysis of the deposited data

How the results depend on the processing

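Over 12 alternatives for each of the 40 genes (480 fits), 423 kept their direction and their side of the threshold. Leaving out replicate 3 of both groups (files with a different naming pattern), the 2 against 2 fit called 0 of the 40 genes higher and 0 lower (8 and 16 of all genes), 0 further pathway genes higher and 0 lower (15 and 7 at an unadjusted p under 0.05; DESeq2 was not run on this subset), and gave the 15 genes called before adjusted p of 0.078 to 0.27 with the same signs. With 1 library left out, 9 to 12 genes of the set rose and 1 to 3 fell, 8 to 14 further pathway genes rose and 1 to 3 fell, and of all tested genes 541 to 1087 rose and 457 to 844 fell. Of the 15 called genes, 10 kept their calls in all 6 of these fits. Both fits that left 1 gene falling, without MI-DAPA replicate 1 or 3, left Slc16a3. Without MI-DAPA replicate 2, the 3 falls included Pfkfb2 and not Tkt. Library totals as the only scaling moved the median of all genes to -0.12, against -0.02, and gave 410 rises over all genes and 8 among further pathway genes, against 1249 falls over all genes. RLE size factors, no filter and DESeq2 gave 13, 12 and 14 rises and 3 falls each in the set. The replicate block gave 12 rises and 3 falls, with Tpi1 at an adjusted p of 0.0513 and Ppp1r3c at 0.0471, and changed no other call in the set. Same-numbered libraries had correlations of their deviations from the group means of 0.04, -0.01 and 0.11, and not every library correlated best with its own number, so the numbers were not taken as pairs. Signs turned only for genes that had not passed: with 1 library left out Slc2a1 ranged from -0.0957 to 0.0437, Gpi1 from -0.00849 to 0.22, Pfkfb1 from -0.0044 to 0.24, Pgam1 from -0.11 to 0.0285, Pgam2 from -0.15 to 0.0026 and Eno1 from -0.0463 to 0.0639. With library totals only Eno1 was at -0.0914, and without replicate 3 in both groups Pgam1 was at 0.0075, Eno1 at -0.0016 and Taldo1 at 0.0243. The log2 difference of the ratio Aldoa/Aldoc ranged from -0.0664 to 1.90 and that of Pgam2/Pgam1 from -0.12 to 0.11. The cause of these shifts was not tested. Besides the naming of its files, replicate 3 of each group had the smallest library total and the highest mitochondrial share. Depth limits Aldoc, at 0 to 8 counts per library.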
